A study of Mus musculus with 6 samples.

Results

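A group of 10 genes of cell cycle arrest and the p53 response were read in mouse forelimb buds: the CDK inhibitor genes Cdkn2a, Cdkn2b, Cdkn1a, Cdkn1b and Cdkn1c, and Trp53 with 4 of its targets, Mdm2, Ccng1, Pmaip1 and Bbc3. The rule took every probe set that the array annotation ties to one of these symbols, on all 6 arrays, without using any measured value. It found 15 probe sets for 9 of the 10 genes, out of 34945 probe sets with 1 symbol for 18193 genes. No probe set is listed for Trp53 in the annotation used, so its transcript was not analysed here.

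The buds were taken at E10.5 from CD1 embryos, divided into proximal and distal parts, and hybridised as 1 array per part and condition. The dKO embryos were Prx1-Cre;Ring1A-/-;Ring1Bfl/fl, where Prx1-Cre acts in limb mesenchyme, so Ring1B is targeted there and not in the overlying ectoderm. The RA embryos were wild type and had received 100 mg/kg all-trans retinoic acid through the mother's gavage at E10.25. The control embryos carry the genotype label Ring1A-/- although their description reads wild type, so dKO and control share the Ring1A deletion by genotype label, and RA and control differ by RA and by that label at once. Both comparisons use the same control arrays. Ring1 encodes RING1A and Ring1B is Rnf2, the ubiquitin ligases of Polycomb repressive complex 1.

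CDK inhibitors brake the cell cycle by binding cyclin-dependent kinases. Those of the INK4 family, from Cdkn2a and Cdkn2b, block the kinases that phosphorylate RB early in the cycle, and those of the CIP/KIP family, from Cdkn1a, Cdkn1b and Cdkn1c, bind a wider range of cyclin-kinase complexes. Cdkn2a also encodes ARF, which holds back MDM2, the ligase that marks p53 for degradation, and p53 in turn activates Cdkn1a, Mdm2, Ccng1 and the death genes Pmaip1 and Bbc3. The Cdkn2a and Cdkn2b locus is a textbook target of Polycomb repression, and Cdkn1c is imprinted and expressed mainly from the maternal copy.

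Upstream windows of 3 p53 targets were picked for display because they hold matches to the sequence pattern that p53 is known to bind; not every target has one. They are the 250 bases before annotated transcript starts in RefSeq on the mouse build GRCm38.p6, given 5′ to 3′ on the gene's strand, with matches to the published p53 half-site pattern in capitals. The windows are chr17:29090729-29090978 on the plus strand for Cdkn1a, chr11:40755287-40755536 on the minus strand for Ccng1, and chr10:117710759-117711008 on the minus strand for Mdm2.
Cdkn1a, upstream start: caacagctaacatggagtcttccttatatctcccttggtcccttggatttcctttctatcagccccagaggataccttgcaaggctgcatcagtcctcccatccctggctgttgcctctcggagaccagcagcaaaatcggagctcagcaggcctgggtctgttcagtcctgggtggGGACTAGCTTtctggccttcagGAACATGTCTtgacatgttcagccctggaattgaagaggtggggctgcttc
Ccng1: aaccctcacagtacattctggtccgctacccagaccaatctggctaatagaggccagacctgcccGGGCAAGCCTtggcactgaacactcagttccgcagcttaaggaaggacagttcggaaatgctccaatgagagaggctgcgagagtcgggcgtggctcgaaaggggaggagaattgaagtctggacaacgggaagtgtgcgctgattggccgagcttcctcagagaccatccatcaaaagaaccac
Mdm2: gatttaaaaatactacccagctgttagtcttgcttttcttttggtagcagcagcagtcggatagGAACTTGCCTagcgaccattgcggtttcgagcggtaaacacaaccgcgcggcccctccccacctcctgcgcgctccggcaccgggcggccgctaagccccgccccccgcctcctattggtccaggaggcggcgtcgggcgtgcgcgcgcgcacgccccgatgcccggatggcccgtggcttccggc
The Cdkn1a window holds 2 matches, which begin at positions -73 and -51 from the transcript start, and the Ccng1 and Mdm2 windows hold 1 each, at -185 and -186. The pattern reads the same on both strands. Of 32841 windows of this length 7.13% hold at least 1 match and 0.259% hold at least 2. A second annotated start of Cdkn1a, with the window chr17:29093519-29093768, holds 0 matches, and so do the windows of Cdkn1b, Cdkn2a and Cdkn2b and all 3 windows of the p53 target Bbc3. The Trp53 window holds 1, at -75, so matches do not separate the targets from the other genes. A match is a description of the letters only, and nothing was measured on p53 binding here.

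The Cdkn2 windows are shown for their CpG content, since CpG-rich promoters are the common substrate of Polycomb complexes in mammals. In these windows CG dinucleotides are in capitals. The upstream Cdkn2a start, at chr4:89294620-89294869, the downstream Cdkn2a start, at chr4:89282193-89282442, and Cdkn2b, at chr4:89311033-89311282, all lie on the minus strand.
Cdkn2a, upstream start: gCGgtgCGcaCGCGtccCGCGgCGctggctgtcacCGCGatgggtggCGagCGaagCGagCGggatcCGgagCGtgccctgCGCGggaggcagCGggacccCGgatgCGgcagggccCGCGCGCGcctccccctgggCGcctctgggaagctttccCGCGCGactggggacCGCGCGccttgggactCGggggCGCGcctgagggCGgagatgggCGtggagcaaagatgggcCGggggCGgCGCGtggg
Cdkn2a, downstream start: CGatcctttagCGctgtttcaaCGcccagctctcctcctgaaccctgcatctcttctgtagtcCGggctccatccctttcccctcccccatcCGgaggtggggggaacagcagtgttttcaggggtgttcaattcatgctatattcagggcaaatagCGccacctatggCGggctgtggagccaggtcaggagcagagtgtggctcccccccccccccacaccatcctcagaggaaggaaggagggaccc
Cdkn2b: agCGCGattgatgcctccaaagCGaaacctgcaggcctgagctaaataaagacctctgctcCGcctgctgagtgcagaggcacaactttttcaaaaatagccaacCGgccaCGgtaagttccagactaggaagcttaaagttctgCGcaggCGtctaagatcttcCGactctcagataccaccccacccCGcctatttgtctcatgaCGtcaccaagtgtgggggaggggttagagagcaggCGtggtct
The upstream Cdkn2a window has 40 CG dinucleotides, more than 98.7% of all windows. The downstream Cdkn2a window has 7 and the Cdkn2b window 12, against a median of 6 over all windows. Other genes of the group had CpG-rich windows too: the Bbc3 windows held 23 to 37, Mdm2 29 and Cdkn1b 28. The Cdkn1a windows held 2 and 19, Ccng1 11 and Trp53 9, so CpG content does not set the Cdkn2 windows apart within the group. The annotation ties the Cdkn2a probe set to the gene and not to one of its starts, so the INK4A and ARF transcripts were not read apart. RefSeq windows are given for 8 of the 10 genes. Pmaip1, a p53 target, was left out before matching, so its window is not reported here, and none was matched for Cdkn1c.

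The values are MAS5 signals, a linear hybridisation intensity. Each gene was read by its brightest probe set, by mean log2 signal over the arrays, and the median of an array's probe sets, 59.5 to 76.1, served as its floor: lower signals were set to it before log2 was taken, and a difference against a floored signal is a bound. A gene was measured in a pair of arrays when it was above the floor on at least 1 of them. Of the 9 genes, 7 were above the floor on at least 1 array and 5 on all 6. A difference between 2 arrays has no replicates behind it. The limma fit described with the processing asks only whether an effect is alike across pairs of arrays, and its threshold is a Benjamini-Hochberg adjusted p of 0.05 over 12147 genes.

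The RA arrays stood apart in several ways. The proximal RA array correlated with the other arrays at r of at most 0.951 across genes, where the highest r between 2 arrays was 0.986, and genes are not independent replicates. Its GAPDH 3'/5' ratio was 1.60 against 1.28 to 1.39 on the others, and the BioB spike-in read 110 and 123 on the proximal and distal RA arrays against 1083 to 1208 on the others. Xist, the RNA of the inactive X chromosome, read 12.9 and 29.5 on the RA arrays, against 3017 to 3688 on the dKO and control arrays. Eif2s3y, a Y-linked gene, read 2783 and 3064 on the RA arrays, against 4.25 to 12.3 on the dKO and control arrays, so RA and embryo sex cannot be told apart in any comparison with control. Ring1 read 402 and 578 in dKO, 419.8 and 245 in RA and 624 and 968 in control (proximal, then distal), and Rnf2 read 1887 to 2147 on all 6 arrays. Neither gene can check the deletions, because where its probes lie in the transcript was not known here. The 8 limb mesenchyme markers were measured in every pair and summed to 12110 to 17426 on the 6 arrays, lowest on the proximal RA array. There Msx1 read 1013 against 3115 in proximal control, and Msx2 went the other way, at 857 against 618. Meox1, a somite marker, read 2453 against 289. The somite markers Meox2 and Tbx18 were lower, at 345 against 1069 and 265 against 1678. Of the distal limb markers, Hoxa13 was below the floor on all 6 arrays.

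The INK4 genes were at or under the limit of the arrays. Cdkn2a was above the floor on the dKO arrays alone and Cdkn2b on none. Cdkn2a read 77.3 proximally and 114 distally in dKO, 30.8 and 16.5 in RA, and 3.01 and 8.14 in control. Both dKO signals were thus the highest, the proximal one only just above its floor of 73.0, and the 4 others have no order among themselves because they lie below their floors. Against the control floors the dKO signals were higher by a log2 of at least 0.27 proximally and at least 0.94 distally. In limma the dKO effect on Cdkn2a was 0.61 (SE 0.21, adjusted p = 0.283), so the gene did not pass. With log2(signal + 32) in place of the floor the effect was 1.75 (adjusted p = 0.033). Since Cdkn2a entered the fit only through the dKO arrays, where it is above the floor, neither fitted value is support for a difference. Cdkn2b, which lies next to Cdkn2a, read 47.5 and 65.5 in dKO, 6.19 and 30.1 in RA, and 8.84 and 26.0 in control, and no difference can be given for it. For neither gene does a signal under the floor say that the transcript was absent.

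**Figure D1:**
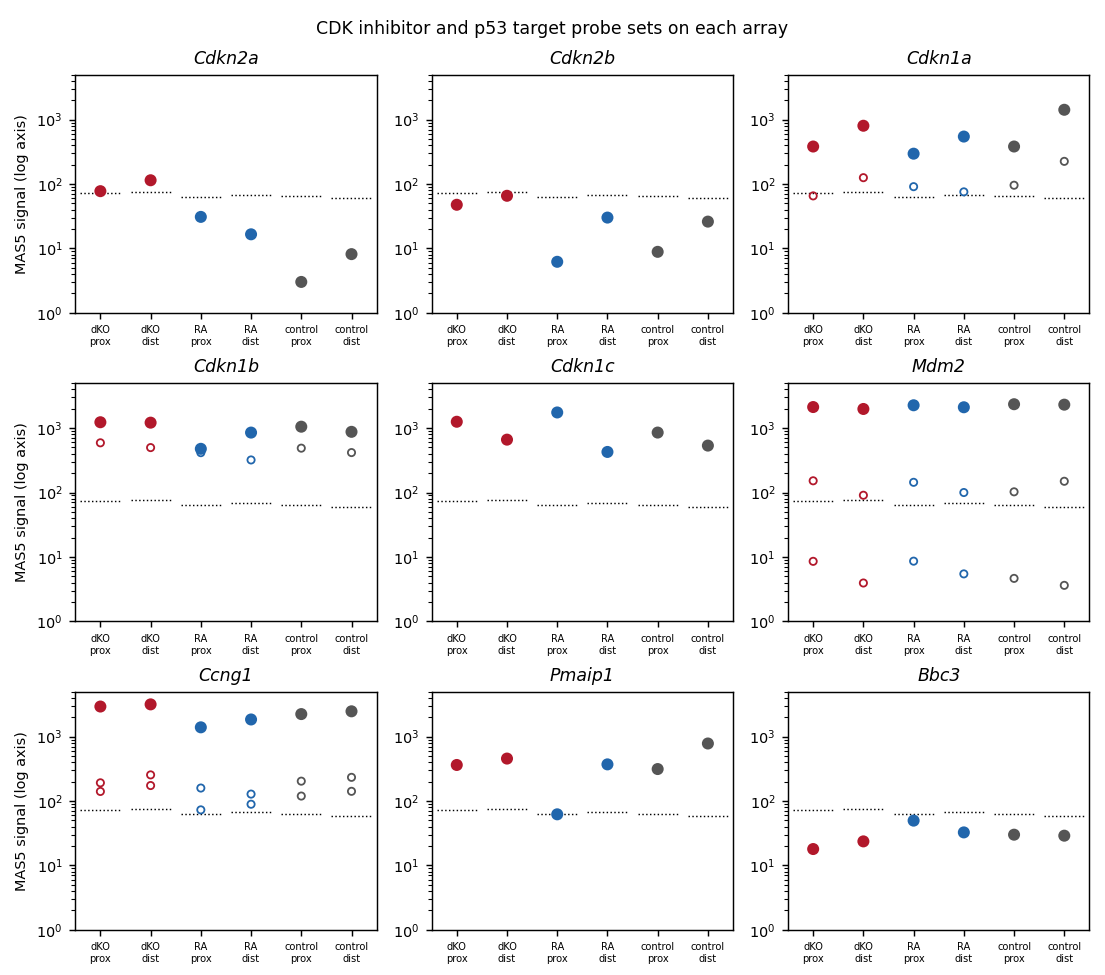
MAS5 signal (log axis) of every listed probe set of the 9 genes on the 6 arrays, 1 point per array. Filled points are the probe set used for the gene, open points its other probe sets, dotted lines the floor of each array; Cdkn2a is above its floor only on the 2 dKO arrays and the main Mdm2 probe set runs level, while Cdkn1a and Pmaip1 differ between parts.

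The 3 CIP/KIP genes were measured on every array and differed in different ways. Cdkn1a, which encodes p21 and is the best known p53 target of the group, was higher in the distal part in every condition. Its signal was 381.4 proximally and 802 distally in dKO, 295 and 545 in RA, and 381.6 and 1419 in control. The distal control array was the highest of the 6 and the proximal RA array the lowest. Every proximal signal lay below every distal one, an order that was not counted over all genes. The log2 difference, proximal minus distal, was -1.07 in dKO, -0.88 in RA and -1.89 in control. In limma the position effect was -1.28 (SE 0.24, adjusted p = 0.165) and did not pass. Without the RA pair it was -1.48 and passed, with an adjusted p of 0.0075, in a fit where 287 of 11878 genes passed. Without the proximal RA array, an alternative chosen after seeing the data, the position effect on Cdkn1a was -1.48 as well.

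In dKO over control, Cdkn1a was level in the proximal part (log2 -0.00) and lower in the distal part (-0.82). RA over control gave -0.37 proximally and -1.38 distally. The limma effects were -0.41 in dKO (SE 0.29, adjusted p = 0.779) and -0.88 in RA (SE 0.29, adjusted p = 0.248). The dKO effect was -0.69 after division by the array median, and the RA effect was -1.18 and passed without the proximal RA array (adjusted p = 0.017). A second, dimmer Cdkn1a probe set read 65.3 and 125 in dKO, 90.8 and 75.4 in RA, and 95.6 and 224 in control. It had the distal control array highest as well. Its distal dKO difference (-0.84) and its RA differences (-0.07 proximally and -1.57 distally) were negative, as by the first probe set. In proximal dKO its signal was below the floor of 73.0, so its difference of -0.39 is a bound, where the first probe set was level. The second probe set parted from the first in the position difference of RA, which was 0.27 by the second and -0.88 by the first, so that its own signals do not separate the 2 parts in RA.

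Ectoderm markers were read beside Cdkn1a, since the distal bud is rimmed by the apical ridge. The 10 surface ectoderm markers summed to 10830 proximally and 15935 distally in dKO, 9251 and 12384 in RA, and 9722 and 16699 in control. The 9 ridge markers summed to 2241 and 3372 in dKO, 772 and 4634 in RA, and 1801 and 6498 in control. The ridge sum is carried by part of its list: on the distal control array Fgf4 read 2141, Sp8 1550 and Wnt5a 1617. In bulk tissue the signal of a listed gene, Wnt5a among them, cannot be tied to the ridge alone. Dlx6 was below the floor on all 6 arrays, and En1 was above it on 1 and Fgf8 on 3. In dKO, Fgf9 and En1 were higher proximally, at 124 against 85.8 and 107 against 64.5. In RA, 3 of the 10 surface ectoderm markers were higher proximally: Krt5 at 439 against 421, Krt14 at 121 against 105 and Krt18 at 2934 against 2814. The surface ectoderm and ridge sums were both lower proximally in every condition and highest on the distal control array, as was Cdkn1a. Their part in the Cdkn1a differences was not tested, and in bulk tissue fewer cells of a type cannot be told from less RNA per cell. Over the 6 arrays, among 10207 genes above the floor on all of them, the log2 patterns nearest to that of Cdkn1a were those of Sfn, which encodes the epithelial 14-3-3 sigma protein and is itself a known p53 target, St14, an epithelial membrane protease, and Cldn7, a tight junction claudin. Their root mean square distances were 0.26, 0.26 and 0.31 on the log2 scale, where Cdkn1a itself spans 2.26.

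Cdkn1c, which encodes p57, ran the other way and was higher proximally in every condition. Its signal was 1254 proximally and 662 distally in dKO, 1748 and 426 in RA, and 852 and 535 in control. The proximal RA array was the highest and the distal RA array the lowest. Every proximal signal lay above every distal one, an order that was likewise not counted over all genes. The proximal minus distal log2 difference was 0.92 in dKO, 2.04 in RA and 0.67 in control. In limma the position effect was 1.21 (SE 0.27, adjusted p = 0.221), short of the threshold. Without the RA pair it was 0.80 and passed, with an adjusted p of 0.017.

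By condition, Cdkn1c was higher in dKO than in control by 0.56 proximally and 0.31 distally on the log2 scale. In RA it was higher than control by 1.04 proximally and lower by -0.33 distally. The limma effects were 0.43 in dKO (SE 0.33, adjusted p = 0.823) and 0.35 in RA (SE 0.33, adjusted p = 0.601), and the dKO effect was 0.16 after division by the array median. The RA effect turned to -0.27 without the proximal RA array (adjusted p = 0.403). Markers of somite and body wall summed to 3131 proximally and 2601 distally in dKO, 6129 and 1509 in RA, and 4421 and 2528 in control, so that this sum, like Cdkn1c, was highest on the proximal and lowest on the distal RA array. The sum is carried by part of the list. In RA over control proximally Tcf15, Pax1 and Meox1 were 2-fold or more higher, Meox2 and Tbx18 lower, and Pax9 was below the floor on both arrays. Of the 6 markers, Pax1 was below the floor on the distal RA and control arrays and Pax9 on all RA and control arrays. Endothelial markers, 8 of 8 measured in every pair, summed to 5147 proximally and 4067 distally in dKO, 5499 and 2992 in RA, and 3700 and 2888 in control, higher proximally in every condition and highest on the proximal RA array. The sum of the muscle precursor markers was higher proximally too, at 5686 against 2464 in dKO, 4094 against 855 in RA and 4000 against 1243 in control. It is carried by Pax3, Lbx1 and Met. Pax7 went the other way in RA, at 62.5 proximally against 151 distally. Myf5 was above the floor on 2 arrays and Myod1 on 0. The part of these tissues in the Cdkn1c differences was not tested. The nearest patterns to Cdkn1c were those of Ypel2, Ehd2, an endocytic ATPase, and Mxd4, a MYC-antagonist factor, at 0.15, 0.15 and 0.16, where Cdkn1c spans 2.04.

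**Figure D2:**
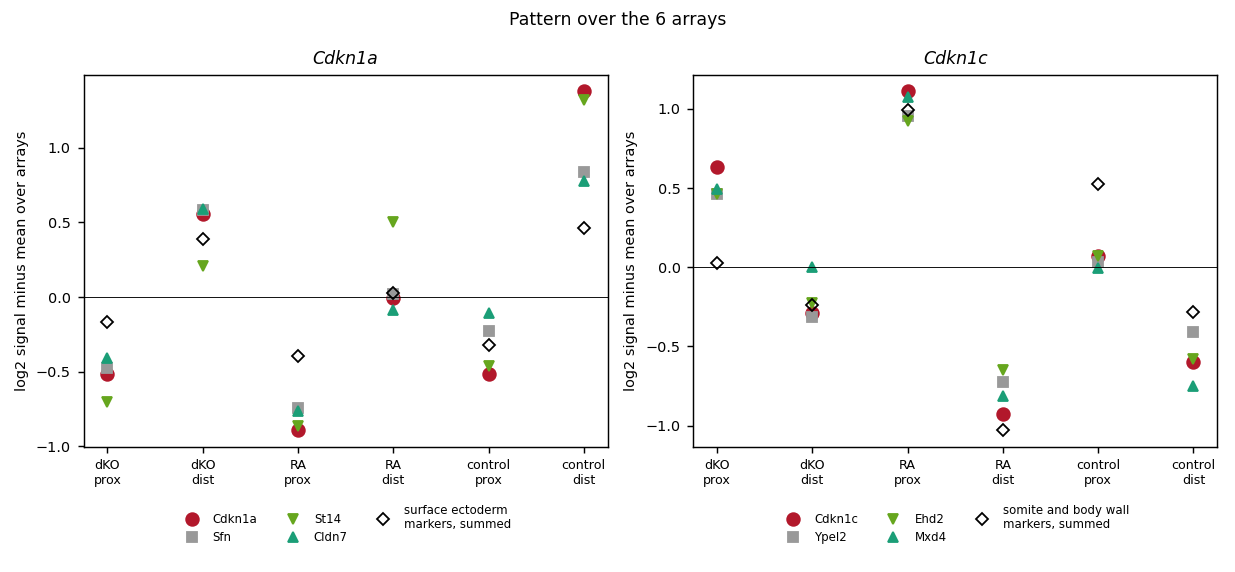
Log2 signal minus its mean over the 6 arrays for Cdkn1a (left) and Cdkn1c (right), 1 point per array, with the 3 genes of nearest pattern and the summed signal of a marker list. Cdkn1a and the ectoderm sum are highest on the distal control array, and Cdkn1c and the somite and body wall sum are highest on the proximal and lowest on the distal RA array.

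Cdkn1b, which encodes p27, stood out on 1 array. Its signal was 1233 proximally and 1214 distally in dKO, 477 and 852 in RA, and 1051 and 875 in control. The dKO signals were the highest 2 and the proximal RA signal the lowest. The log2 differences over control were 0.23 proximally and 0.47 distally in dKO, and -1.14 and -0.04 in RA. In limma the effects were 0.35 in dKO (SE 0.28, adjusted p = 0.845), -0.59 in RA (SE 0.28, adjusted p = 0.346) and -0.18 for position (SE 0.23, adjusted p = 0.765). Without the proximal RA array the RA effect was -0.10 and the position effect 0.14, and after division by the array median the dKO effect was 0.08. The second probe set read 591 and 498 in dKO, 415 and 320 in RA, and 488 and 417 in control. By it the proximal RA difference was -0.23 and not -1.14, and the position difference within RA was 0.38 and not -0.84. In dKO both probe sets were higher than in control in both parts, by 0.23 to 0.47. The nearest patterns to Cdkn1b were those of Kdm1b, a histone demethylase, Lactb2 and Ralb, a small GTPase, at distances of 0.068, 0.086 and 0.086, where Cdkn1b spans 1.37. All of them were lowest on the proximal RA array, the array that stood apart across genes.

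The p53 targets did not move as a block. Mdm2, the negative regulator of p53, was the most level of the 7 measured genes. Its signal was 2122 proximally and 1981 distally in dKO, 2261 and 2105 in RA, and 2347 and 2310 in control. The highest was 1.19 times the lowest. In limma the 95% intervals of its effects on the log2 scale were -0.52 to 0.15 in dKO, -0.43 to 0.24 in RA and -0.20 to 0.35 for position, which leaves out a 2-fold change under the assumptions of that fit. After division by the array median, which moved the median log2 difference of all genes in dKO over control to -0.17 proximally and -0.35 distally, the dKO effect on Mdm2 was -0.46. A dimmer Mdm2 probe set read 152 and 90.7 in dKO, 144 and 99.9 in RA, and 102 and 149 in control. It was not level, with log2 differences over control of 0.57 proximally and -0.72 distally in dKO and 0.49 and -0.58 in RA. The last was below the floor on all 6 arrays.

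Ccng1, which encodes cyclin G1, ran high in dKO and low in RA. Its signal was 2932 proximally and 3167 distally in dKO, 1394 and 1846 in RA, and 2239 and 2472 in control. Both dKO signals were above both control signals, and both RA signals were below them. How many of all genes show this order was not counted. The log2 differences over control were 0.39 and 0.36 in dKO and -0.68 and -0.42 in RA, all under 2-fold. The limma effects were 0.37 in dKO (SE 0.15, adjusted p = 0.401) and -0.55 in RA (SE 0.15, adjusted p = 0.181), and neither passed. Without the RA pair the dKO effect passed with an adjusted p of 0.021, and without the proximal RA array the RA effect was -0.41 and passed with an adjusted p of 0.048. The dKO effect was 0.10 after division by the array median and 0.021 with the median of the probe sets. With 1 residual degree of freedom, the fits without arrays lean on the variance pooled over genes.

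The other Ccng1 probe sets bear on the RA difference. The second read 192 and 255 in dKO, 159 and 128 in RA, and 203 and 233 in control, and the other 141 and 174, 72.9 and 89.2, and 119 and 142 in the same order. All 3 probe sets were lower in RA than in control in both parts, by -0.71 to -0.36 proximally and -0.86 to -0.42 distally. In dKO all 3 were higher distally and 2 of 3 proximally. Probe sets of 1 gene share the same RNA and are not replicates. The nearest patterns to Ccng1 were those of Klf1, an erythroid transcription factor, Spns2, a sphingosine phosphate transporter, and Slc31a2, a copper transporter, at 0.057, 0.063 and 0.064, where Ccng1 spans 1.18. The erythroid markers summed to 38951 and 35761 in dKO, 45715 and 37651 in RA, and 33597 and 32569 in control. That sum is mostly globin signal near the top of the arrays' range, and Alas2, a haem synthesis gene of the list, read 1043 and 1276 in dKO, 722 and 985 in RA, and 800 and 814 in control. The part of erythroid cells in the Ccng1 differences was not tested.

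Pmaip1 encodes NOXA, a BH3-only protein that promotes apoptosis. It read 363 proximally and 456 distally in dKO, 62.2 and 371 in RA, and 314 and 782 in control. The proximal RA signal was below its floor of 63.0 and the distal control signal was the highest. The proximal minus distal log2 difference was -0.33 in dKO, -2.56 in RA, a bound, and -1.32 in control. Over control, Pmaip1 differed by 0.21 proximally and -0.78 distally in dKO, and by -2.32, a bound, and -1.08 in RA. In limma the position effect was -1.40 (SE 0.40, adjusted p = 0.330), the RA effect -1.70 (SE 0.49, adjusted p = 0.202) and the dKO effect -0.28 (SE 0.49, adjusted p = 0.9996). The RA effect passed without the dKO pair, with an adjusted p of 0.012. Without the proximal RA array the RA effect was -0.83 (adjusted p = 0.112) and the position effect -0.82 (adjusted p = 0.0922). Like Cdkn1a, the gene was lower proximally in all 3 conditions, and the ectoderm and ridge sums given above were too. Markers of stress at dissection summed to 3616 and 4200 in dKO, 2624 and 2090 in RA, and 2825 and 2735 in control, with Hspa1b at 2002 and 2467, 217 and 376, and 1305 and 1381 in the same order. The low RA sum is carried by Hspa1b. Ddit3 read 809 and 389 in RA against 221 and 228 in control, and Jun 867 and 550 against 619 and 374. Over the 5 measured stress markers the median log2 difference, RA over control, was 0.20 proximally and 0.26 distally. The part of stress in the Pmaip1 differences was not tested. Bbc3, which encodes PUMA, another BH3-only protein, was below the floor throughout, at 18.0 and 23.6 in dKO, 49.6 and 32.6 in RA, and 30.0 and 29.0 in control, and gives no difference.

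**Figure D3:**
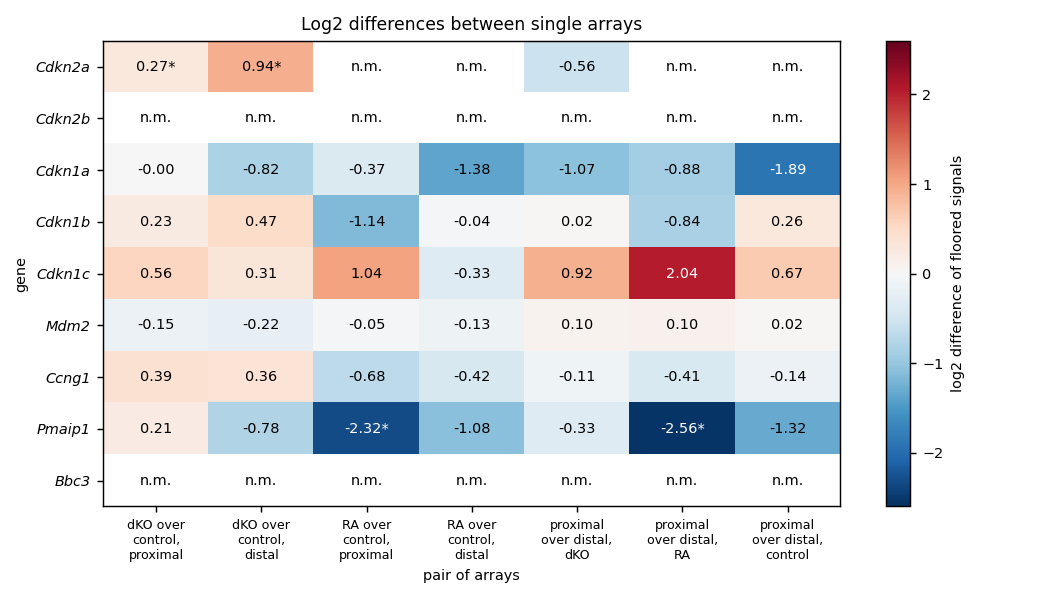
Log2 differences between single arrays for the 9 genes, by their main probe set, in 7 pairs of arrays; red is higher and blue lower in the array named first, * marks a bound against a floored signal and n.m. a pair with both arrays at the floor. Cdkn1a and Pmaip1 are negative and Cdkn1c is positive in all 3 proximal over distal columns, and Ccng1 is positive in both dKO and negative in both RA columns.

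Counted over the group, 0 of 7 measured genes were shown to be 2-fold or more higher or lower in dKO in either part. For Cdkn2a the values are lower bounds, so a 2-fold difference is not left out: with log2(signal + 32) it was higher by 1.64 proximally and 1.86 distally. In the proximal part 4.07% of all measured genes were higher and 0.363% lower, and in the distal part 5.32% and 0.524%, so a count of 0 of 7 is near the background. The medians of the group in dKO were 0.23 proximally and 0.31 distally, against 0.02 and 0.01 over all genes. In RA over control 1 of 6 was at least 2-fold higher proximally (Cdkn1c) and 2 lower (Cdkn1b and Pmaip1), where 3.69% and 6.8% of all genes were. Distally 0 were higher and 2 lower (Cdkn1a and Pmaip1), where 2.16% and 2.13% of all genes were. The medians were -0.53 and -0.37, against 0.01 and -0.04 over all genes.

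For position, proximal over distal, 1 of 7 was lower in dKO (Cdkn1a) and 0 higher, beside 0.722% lower and 0.515% higher over all genes. In RA 1 of 6 was lower (Pmaip1) and 1 higher (Cdkn1c), beside 6.16% and 4.4%. In control 2 of 6 were lower (Cdkn1a and Pmaip1) and 0 higher, beside 1.4% and 1.35%. The limma fit called 0 of the 7 genes in each effect. Over all genes it called 2.21% higher and 0.115% lower in dKO, 0.305% higher and 0.239% lower in RA, and 0.0% in each direction for position. At an unadjusted p under 0.05 it had 2 of the 7 in dKO (Cdkn2a and Ccng1), 3 in RA (Cdkn1a, Ccng1 and Pmaip1) and 3 for position (Cdkn1a, Cdkn1c and Pmaip1), beside 1411, 2032 and 1156 of all 12147 genes. Cdkn2a was among the 7 only because of its dKO signals, so its place in the dKO counts and medians is set in part by that filter.

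Other genes of the p53 response gave no call either. Of 27 further p53 targets measured, 0 rose and 0 fell in limma in each of the 3 effects, and their median effects were 0.09 in dKO, 0.02 in RA and -0.02 for position. Over all genes the fit called 2.21% higher and 0.115% lower in dKO, and 0.305% and 0.239% in RA. For position it called 0.0% in each direction. A count of 0 here and in the lists below is thus near the background. Named are the genes of one sign in both parts whose smaller difference is the largest. In dKO these were Tap1, a peptide transporter of antigen presentation, with log2 differences of 1.20 proximally and 1.05 distally (adjusted p = 0.153), and Phlda3, an AKT inhibitor, with 0.69 and 0.62 (adjusted p = 0.457). In RA they were Plk2, a polo-like kinase, with 1.17 and 0.70 (adjusted p = 0.166), and Tigar, a regulator of glycolysis, with -0.56 and -0.57 (adjusted p = 0.223). Sesn1, a stress-response sestrin named after its values were seen, read 1436 and 2045 in dKO, 286 and 809 in RA, and 1264 and 1080 in control, lower in RA in both parts. The limma RA effect on Tigar was 1.03 when a gene was read as the median of its probe sets. For position Perp, a desmosome gene of epithelia, read 2412 proximally and 3951 distally in dKO, 1361 and 2964 in RA, and 2234 and 3745 in control. It was lower proximally by -0.71, -1.12 and -0.75 (adjusted p = 0.127), and Plk2 higher by 0.65, 0.99 and 0.53 (adjusted p = 0.314).

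Regulators of p53 and its family counted 0 calls of 14 in each effect. By the same rule the genes named in dKO were Kat5, an acetyltransferase, at -0.15 proximally and -0.23 distally, and Cop1, a ubiquitin ligase, at -0.10 in each part (adjusted p = 0.964 and 0.996). Trp63, the p53 relative of the epidermis and also 1 of the 10 surface ectoderm markers, read 611 and 856 in dKO, 399 and 762 in RA, and 611 and 1061 in control. It was lower proximally by -0.49, -0.93 and -0.80 in dKO, RA and control (adjusted p = 0.234), and lower in RA by -0.61 proximally and -0.48 distally (adjusted p = 0.281). Ep300, a coactivator of p53, was lower proximally by -0.38, -0.84 and -0.08 (adjusted p = 0.517). Chek2, a kinase of the DNA damage response, was higher in RA by 0.32 and 0.28 (adjusted p = 0.544).

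Downstream of the inhibitors, the cyclins, CDKs and other CDK inhibitors had 0 calls of 17 in each effect, with medians of -0.02 in dKO, -0.10 in RA and 0.05 for position. Cdk6, a kinase that INK4 proteins bind, read 1179 and 1748 in dKO, 1368 and 2470 in RA, and 1741 and 2431 in control. It was lower in dKO by -0.56 proximally and -0.48 distally (adjusted p = 0.226) and lower proximally by -0.57, -0.85 and -0.48 in dKO, RA and control (adjusted p = 0.199). Ccne1, a cyclin of S phase entry, was lower in dKO by -0.36 and -0.40 (adjusted p = 0.327). In RA, Cdkn3, a CDK phosphatase, was lower by -0.48 in each part (adjusted p = 0.255) and Ccnd2, cyclin D2, by -0.40 and -0.50 (adjusted p = 0.220). Cdk2 was higher proximally by 0.27, 0.26 and 0.30 (adjusted p = 0.599).

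The RB and E2F genes had 0 calls of 13. E2f1, an activator of S phase genes, was lower in dKO by -0.22 proximally and -0.27 distally (adjusted p = 0.843), and its limma effect was 0.029 when a gene was read as the median of its probe sets. Tfdp2, an E2F partner, was lower in dKO by -0.26 and -0.24 (adjusted p = 0.683) and higher proximally by 0.22, 0.24 and 0.24 (adjusted p = 0.590). In RA, E2f8 was lower by -0.96 and -0.40 (adjusted p = 0.242) and E2f2 by -0.42 and -0.65 (adjusted p = 0.331). Rb1 was lower proximally by -0.16 in dKO, -1.49 in RA, a bound, and -0.47 in control (adjusted p = 0.497). Of 14 proliferation genes 0 were called in each effect, with medians of -0.07 in dKO, -0.10 in RA and 0.08 for position. Mcm2, a replication helicase subunit, was lower in RA by -0.73 proximally and -0.51 distally (adjusted p = 0.130) and in dKO by -0.19 and -0.21 (adjusted p = 0.779). Mcm5 was lower in RA by -1.01 and -0.31 (adjusted p = 0.223). Mki67 differed by 0.16 and 0.11 in dKO (adjusted p = 0.971), and its limma effect was -0.14 after division by the array median. For position Mcm3 differed by -0.15, -0.61 and -0.07 (adjusted p = 0.582) and Ccnb2 by 0.23, 0.24 and 0.06 (adjusted p = 0.599).

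The BCL2 family, through which NOXA and PUMA act, had 0 calls of 12 in each effect. Bik, another BH3-only gene, read 204 and 144 in dKO, 59.9 and 12.7 in RA, and 77.6 and 85.5 in control. It was higher in dKO by 1.40 proximally and 0.75 distally, with a limma effect of 1.07 (SE 0.23, adjusted p = 0.080). Bok, a BAX-like effector, read 928 and 1031 in dKO, 342 and 396 in RA, and 635 and 712 in control. It was higher in dKO by 0.55 and 0.53 (adjusted p = 0.336) and lower in RA by -0.89 and -0.84 (adjusted p = 0.128), so its conditions fell in the order seen for Ccng1. Bcl2l2, a survival gene, was higher in RA by 0.62 and 0.70 (adjusted p = 0.288). For position Bcl2 differed by -0.26, -0.49 and -0.32 (adjusted p = 0.553) and Bnip3 by -0.18, -0.27 and -0.37 (adjusted p = 0.527).

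Genes that lie near the inhibitors on the chromosome were read to place the locus. Of 6 listed neighbours of Cdkn2a and Cdkn2b, 4 were measured and 1 rose in dKO in limma. This was Elavl2, which encodes a neuronal RNA-binding protein, with 3 protein-coding genes between it and Cdkn2a in RefSeq. It read 1089 proximally and 963 distally in dKO, 334 and 242 in RA, and 364 and 377 in control. Both dKO signals lay above all others, by log2 1.58 and 1.35 over control, with a limma effect of 1.47 (SE 0.24, adjusted p = 0.033). The call was lost after quantile normalization (adjusted p = 0.110), after division by the array median (adjusted p = 0.171), when only genes above the floor on all 6 arrays were fitted (adjusted p = 0.0897) and with the median of its probe sets (0.68, adjusted p = 0.0821). Of 3 neural markers measured 2, Nefl and Nefm, rose in dKO too. The 5 neural and Schwann markers on the array summed to 1149 and 1186 in dKO, 248 and 340 in RA, and 440 and 486 in control. That sum is carried by Nefl, at 709 and 762 in dKO against 220 and 143 in control. Tubb3 was higher in dKO proximally, at 139 against 95.8, and lower distally, at 182 against 266. Sox10 and Elavl3 were below the floor on all 6 arrays. The part of neural cells in the Elavl2 result was not tested.

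Mtap, the nearest of the listed genes, ran nearly level. With 0 protein-coding genes between it and Cdkn2a, this enzyme gene of methionine salvage read 4345 and 4191 in dKO, 4595 and 3873 in RA, and 4203 and 4499 in control. Dmrta1, a DM-domain transcription factor with 1 gene between, read 438 and 1192 in dKO, 77.7 and 367 in RA, and 320 and 808 in control. It was lower proximally in every condition, by -1.44 in dKO, -2.24 in RA and -1.33 in control (adjusted p = 0.110), and lower in RA by -2.04 proximally and -1.14 distally (adjusted p = 0.082). Its lowest array was the proximal RA array, as for Pmaip1 and Cdkn1a. Klhl9, with 23 protein-coding genes between, read 1896 and 1325 in dKO, 1004 and 1547 in RA, and 1717 and 1548 in control. The interferon genes Ifna1 and Ifnb1 were below the floor on all arrays.

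In and around the imprinted domain of Cdkn1c, 9 of 13 listed genes on the array were measured and 1 rose in dKO. This was Phlda2, an imprinted growth regulator of the placenta, with 1 protein-coding gene between it and Cdkn1c. It read 378 proximally and 535 distally in dKO, 78.3 and 64.5 in RA, and 43.5 and 92.6 in control. The dKO signals stood well above the rest, which lay at or close to their floors, by log2 at least 2.56 proximally and 2.53 distally. The limma effect was 2.55 (SE 0.26, adjusted p = 0.0095). It passed under every alternative for which its result was recorded, and the fit of every probe set was not among them. Cdkn1c, beside it, differed by 0.56 and 0.31 and did not pass, and the median effect of the 9 genes in dKO was 0.09. The difference between the effects on the 2 genes was not tested.

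Kcnq1ot1, the long noncoding RNA that silences this domain on the paternal copy, read 843 proximally and 1100 distally in dKO, 1748 and 2316 in RA, and 880 and 853 in control. Both RA signals were the highest, by 0.99 and 1.44 over control (limma 1.22, SE 0.19, adjusted p = 0.065), short of the threshold. Igf2, a growth factor gene with 8 protein-coding genes between it and Cdkn1c, read 10797 and 9818 in dKO, 13623 and 10587 in RA, and 9890 and 9513 in control. Dhcr7 was lower in RA by -1.26 and -0.41 (adjusted p = 0.202) and differed for position by -0.07, -1.02 and -0.17 (adjusted p = 0.561). Osbpl5 was higher proximally by 0.09, 0.65 and 0.54 in dKO, RA and control (adjusted p = 0.523).

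**Figure D4:**
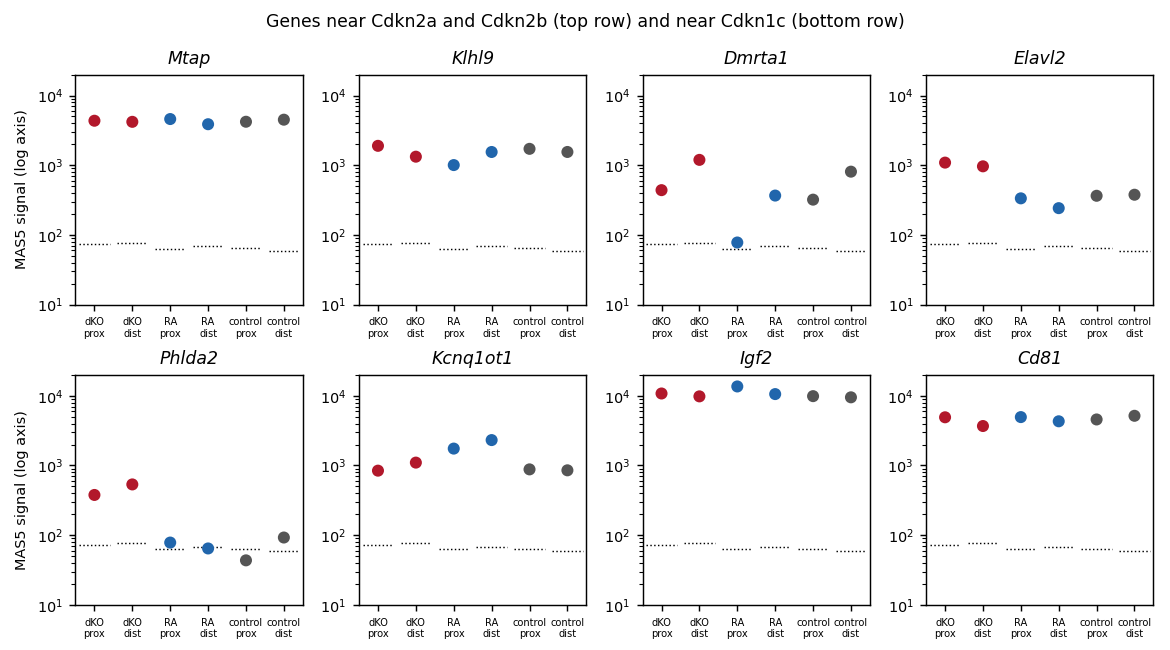
MAS5 signal (log axis) on the 6 arrays for 4 genes near Cdkn2a and Cdkn2b (top) and 4 near Cdkn1c (bottom), 1 point per array, with each array's floor as a dotted line. Elavl2 and Phlda2 are highest on the 2 dKO arrays, Kcnq1ot1 on the 2 RA arrays, and Mtap, Igf2 and Cd81 run nearly level.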

How the data were processed

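Transcripts of 6 mouse forelimb bud samples were measured on one-colour Affymetrix arrays from biotin-labelled cRNA, 1 array per part and condition. The deposited values are signal intensity from MAS5, per the submitters' processing notes, with no version named there. On each array the mean without the lowest and highest 2% is 500, and no detection calls are included. There were 0 unused columns of per-sample values. The number of arrays limits the precision.

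Probe sets were named through GEO's platform annotation: 34945 had 1 symbol and 932 several, and 34741 matched RefSeq by gene ID, which changed 0 symbols. Signals were floored at the array median and log2 was taken. An additive model of condition and part was fitted with limma 3.58.1 (R 4.3.3; trended prior) to 12147 genes, with 2 residual degrees of freedom and 4.64 from the prior. Its residual is disagreement between pairs of arrays, not replicate error. Counts at 2-fold between single arrays have no test. All 10 genes were named. From each other list up to 3 passing genes per effect were named, or else up to 2 of the same sign in every pair with the largest smaller difference; the 3 nearest log2 patterns were named for genes above the floor on all arrays that span at least 1. Igf2, Cd81, Mtap, Klhl9, Ifna1, Ifnb1, Nefl, Nefm, Pax1, Xist, Eif2s3y, Alas2, Hspa1b, Msx1, Meox1, Hoxa13, Sesn1, Ring1 and Rnf2 are outside this rule and were chosen after their values were seen. So were the other single genes given beside a marker sum. The genes and lists were chosen with earlier results of these data known. Alternatives covered scaling, floor, filter, probe set choice, variance trend and arrays left out. The fit was tested on simulated data. Labels give no replicate numbers shared between groups.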

Additional observations from a re-analysis of the deposited data

Results flagged for a closer look

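Some differences had opposite signs in conditions or parts that share a contrast. With 1 array on each side, none of these differences was tested. Cdkn1b differed between parts, proximal minus distal, by 0.02 in dKO and -0.84 in RA, a gap of 0.86 on the log2 scale, and by -0.84 in RA and 0.26 in control, a gap of -1.10. Its second probe set gave 0.25 in dKO, 0.38 in RA and 0.23 in control, so the gap is not seen by that probe set. Cdkn1c in RA over control was 1.04 proximally and -0.33 distally, a gap of 1.36. Pmaip1 in dKO over control was 0.21 proximally and -0.78 distally, a gap of 0.99. Groups of 1 array leave no outlying sample to look for within a group.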

How the results depend on the processing

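The main limit is 1 array per group. Fits that leave out arrays have 1 residual degree of freedom, and the fit of all 18193 genes without a filter took an infinite prior, so their larger counts are not better supported. In dKO 283 genes were called, against 87 after quantile normalization, 115 after division by the array median, 88 with no floor, 9 among genes above the floor on all arrays, 7656 without a filter, 1135 without the RA pair and 1256 without the proximal RA array (chosen after seeing the data). In RA 66 were called, against 15, 35, 13 (all arrays), 1245 (no filter), 122 with every probe set fitted, 308 without the dKO pair and 977 without the proximal RA array. For position 0 were called, against 768 without a filter, 287 without the RA pair, 225 without the dKO pair, 334 without the control pair and 339 without the proximal RA array. The fits without arrays covered 11822 to 12039 genes, and the fit of genes above the floor on all arrays 10207. With every probe set fitted, 21846 probe sets were covered. The member counts that follow are to be read beside these gene counts. Of the 7 genes of the report, 0 were called in each effect. In dKO 1 was called with log2(signal + 32) (Cdkn2a), and 1 without the RA pair or the proximal RA array (Ccng1). Without a filter it was 3 of all 9 genes: Cdkn2a, and Cdkn2b and Bbc3, which are below the floor on every array, so that their fitted effect is a difference between array floors. In RA it was 3 without a filter, 1 without the dKO pair (Pmaip1) and 2 without the proximal RA array (Cdkn1a and Ccng1). For position it was 3 without a filter or the dKO pair (Cdkn1a, Cdkn1c and Pmaip1) and 2 without the RA pair (Cdkn1a and Cdkn1c), the control pair (Cdkn1c and Pmaip1) or the proximal RA array. Of the 2-fold counts, dKO over control had 0 members in each part, against 2 distally after division by the array median (Cdkn1a and Pmaip1) and 1 in each part with no floor or log2(signal + 32) (Cdkn2a). Genes 2-fold apart in dKO proximally were 513, against 778 with no floor and 333 with the median of probe sets, and between parts in dKO 144, against 258 and 94, with 0 members in place of 1 by the median of probe sets. Signs turned for Cdkn1c in RA (-0.27 without the proximal RA array), Cdkn1b for position (0.050 with the median of probe sets, 0.14 without the RA pair or the proximal RA array), Tigar in RA (1.03), E2f1 in dKO (0.029) and Elavl2 in RA (0.087), all 3 with the median of probe sets, and Mki67 in dKO (-0.14 after division by the array median). Division by the array median moved the median of all genes by up to -0.35 (distal dKO over control) and -0.24 (distal RA over control), and the 2-fold split from 620 higher and 61 lower to 321 and 192 in the first, from 246 and 243 to 159 and 424 in the second, from 154 and 159 to 124 and 196 between parts in control, from 506 and 708 to 742 and 546 in RA (628 and 577 after quantile normalization) and from 60 and 84 to 84 and 67 in dKO. Quantile normalization gave 13 higher and 2 lower RA calls, against 37 and 29. The Elavl2 call in dKO is given in the report. The causes of these changes were not tested. Condition and part of the bud are terms in every fit, so the position effect compares the 2 parts within a condition. For the dKO and RA effects the parts of a condition serve as its observations, and any dependence between them is not modelled.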
